A study of Rattus norvegicus with 6 samples.

Results

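The insulin-like growth factor (IGF) axis was examined in dorsolateral prostates from males of the inbred ACI rat strain, fed corn oil for 18 months. The genes considered were 10 in number: the ligands Igf1 and Igf2, the receptors Igf1r and Igf2r, and the binding proteins Igfbp1 to Igfbp6. Every probe set annotated to 1 of these genes alone was taken, which gave 24 of the 8799 probe sets on the array, for 9 of the 10 listed and of the 4736 named genes. Igfbp4 had no probe set named here. Igf1 had 5 probe sets, Igf2 6, Igf1r 2, Igf2r 1, Igfbp2 and Igfbp5 3 each, Igfbp3 2, and Igfbp1 and Igfbp6 1 each. The tested rats were 3 on a high corn oil diet, set against 3 on a low corn oil diet. All carried the ACI background, were 18 month old males per the labels and gave 1 array each. The comparison asks how the 2 diets differ in prostate RNA after long feeding.

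IGF1 and IGF2 are secreted growth factors that signal through the tyrosine kinase receptor encoded by Igf1r, while the Igf2r product, the mannose 6-phosphate receptor, takes up IGF2 for breakdown and does not signal in that way. The binding proteins hold the ligands outside the cell and set how much is free to reach the receptor. In the prostate, IGF1 comes from the circulation and from stromal cells, and acts on the epithelium.

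Whole-array properties bear on several results. High corn oil replicate 1 resembled the low corn oil arrays, with Spearman correlations of 0.927 to 0.950 with them across tested probe sets, against 0.869 and 0.881 with high corn oil replicates 2 and 3. The free-text description of high corn oil replicate 3 names the low diet, while its title and source name place it in the high group, where it was kept. The 7 bacterial spike-in probe sets had more signal in 3 arrays (high corn oil replicate 1, and replicates 1 and 2 of the low diet) than in the other 3. Probasin (Pbsn), the defining secretory product of the rat dorsolateral lobes, was bright on every array, as the tissue label has it. Its intensity was 99574, 19851 and 21926 in high corn oil replicates 1 to 3, against 78113, 82039 and 81437 in low corn oil replicates 1 to 3.

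Of the 24 probe sets, 14 from 8 genes had a mean intensity over all arrays of at least 342.9, the 40th percentile of the table, and entered the fit across 5244 probe sets. The remaining 10, among them the 1 for Igfbp1, were dimmer and were not tested. None of the 14 passed limma's test after Benjamini-Hochberg adjustment at 0.05, and neither did any of the 5244 (0.0%). At an unadjusted p under 0.05 there were 2 of the 14, against 522 of all tested probe sets (9.95%). The diets did not overlap in 2 of the 14 (14.3%), against 15.5% of all tested probe sets, so that share was near the background. Of the 14, 6 were higher and 8 lower under the high diet, with a median log2 difference of -0.14, against 0.03 over all tested probe sets. All differences below are high minus low on the scale log2(intensity + 156.1), which understates the change of dim probe sets, and each standard error comes from limma.

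**Figure D1:**
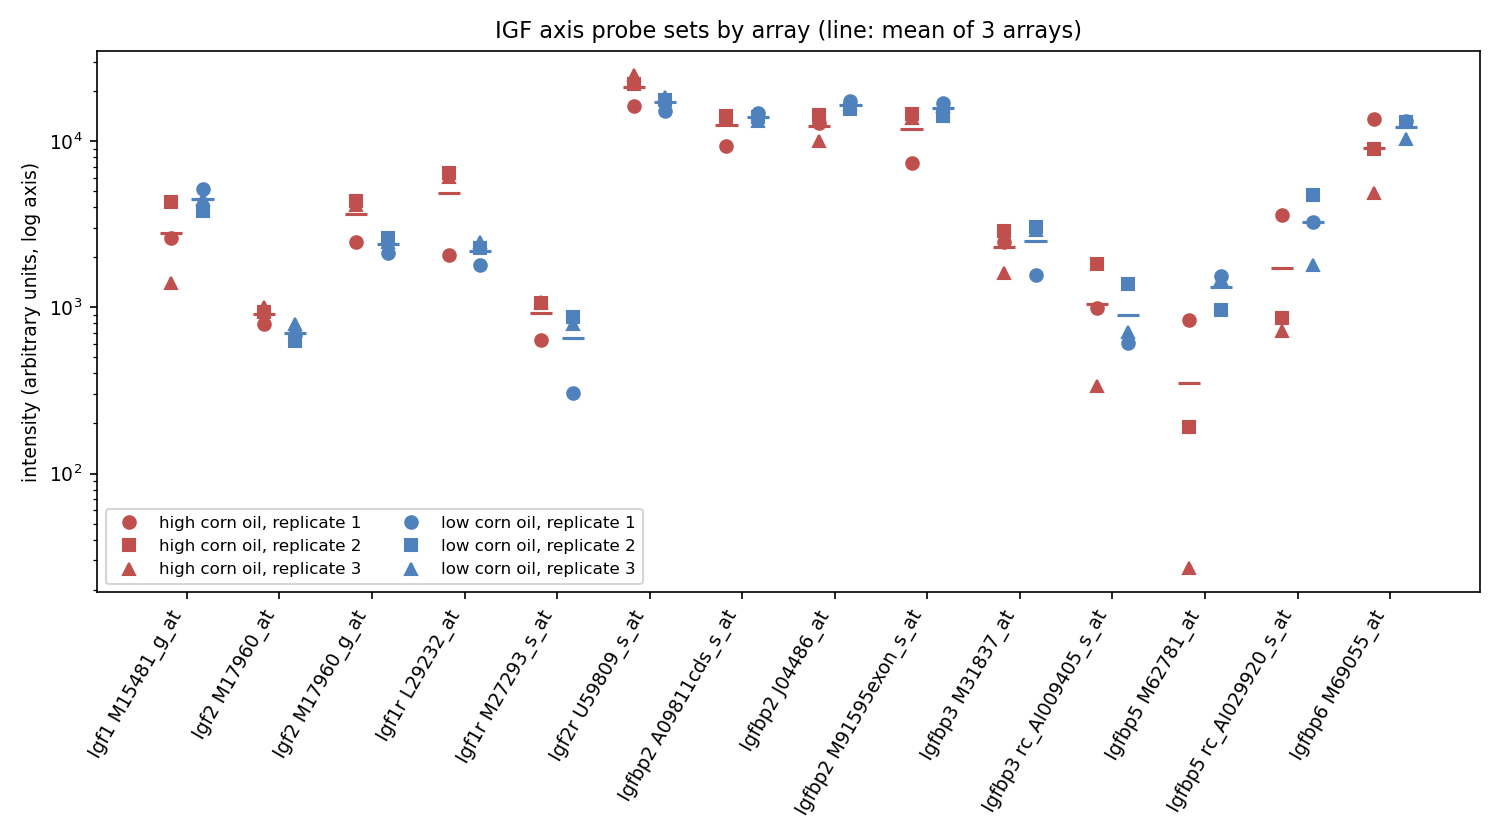
Intensity (log axis) of the 14 tested IGF axis probe sets on each array, high corn oil in red to the left and low corn oil in blue to the right, with a line at each mean of 3 arrays. The diets separate in Igfbp2 J04486_at and Igfbp5 M62781_at, and in Igf1r L29232_at high corn oil replicate 1 lies at 2050, among the low corn oil arrays, below replicates 2 and 3 at 6372 and 6085.

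Among the ligands, Igf1 had the lower mean and Igf2 the higher mean under the high diet, and neither difference passed the test. Only 1 of the Igf1 probe sets, M15481_g_at, was bright enough to be tested. It read 2605, 4315 and 1407 in high corn oil replicates 1 to 3, against 5115, 3776 and 4469 in low corn oil replicates 1 to 3. High corn oil replicate 2 lay inside the low corn oil range and the other 2 high corn oil arrays below it. The means were 2776 ± 1462 under the high diet and 4453 ± 669 under the low diet (SD, n = 3 each), a log2 difference of -0.77 ± 0.36 (SE, limma adjusted p = 0.505). The difference was -0.38 without high corn oil replicate 3, -1.14 without high corn oil replicate 2, and 0.01 where high corn oil replicate 3 counted as a low array.

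The other 4 Igf1 probe sets had means over all arrays under the filter. Their means were lower under the high diet, where those of M15481_at, X06107_r_at and X06107_i_at were below 0. D00698_s_at read 172, 248 and 30.8 in the high corn oil arrays, against 248, 196 and 258 in the low corn oil arrays. M15481_at, named for the same sequence entry as the bright probe set, read 75.2, -298 and -518 against 217, 36.4 and 408. Values below 0 point to a subtracted background or mismatch signal larger than that of the probes. The processing notes name MAS5 and do not spell out how such values arose. X06107_r_at stood at -2342, -5563 and -2406 under the high diet, against 2406, 2481 and 78.1 under the low diet. With no filter limma gave X06107_r_at an adjusted p of 0.569. The last, X06107_i_at, averaged -164 ± 354 under the high diet and 50.1 ± 88.1 under the low diet (SD, n = 3 each). The IGF axis probe sets below 0 on every array also had lower means under the high diet. Igfbp1 M58634_at averaged -1212.5 against -415.3 under the low diet, Igfbp5 rc_AI070577_at -832.1 against -240.5, and Igf2 E00988mRNA_s_at -650.6 against -210.5. Lower values below 0 were thus not particular to Igf1, and whether they reflect Igf1 RNA was not tested.

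Over the 6 arrays, the genes with a pattern most like Igf1 M15481_g_at were Cfp, Bok and Pik3cd, with Pearson correlations of 0.994, 0.985 and 0.984 on the log2 scale. Cfp encodes properdin of the complement system, Bok a member of the BCL2 family, and Pik3cd a catalytic subunit of phosphoinositide 3-kinase found mainly in leukocytes. They were picked as the closest of all tested genes on the same arrays, so the correlations are a description.

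Igf1 is made in the stroma, and the fibroblast markers were also lower under the high diet, though not in the same array order. All 7 tested markers of the 8 listed were lower, against 46.1% of all tested probe sets. Their median difference was -0.63 in log2 and 0 passed limma's test. Summed over the 8 markers, the intensity ran from 57466 to 78653 in high corn oil arrays and from 90106 to 125685 in low corn oil arrays, with no overlap. Among the high corn oil arrays this sum was highest in replicate 1, at 78653 against 62385 in replicate 2. Igf1 M15481_g_at was instead highest in replicate 2. The sum of the 7 smooth muscle markers overlapped between diets, at 132928 to 167164 against 161320 to 199022. Of these 7 markers, 6 were also lower under the high diet, with a median log2 difference of -0.245 over the 7. Of 7 macrophage markers listed 4 had a probe set, and their sum was 8008 to 9585 in high corn oil arrays against 13141 to 17253 in low corn oil arrays. In bulk tissue, fewer cells of a type and less RNA per cell cannot be told apart. The part of these markers in the Igf1 values was not tested.

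Igf2, a fetal growth factor that is imprinted in rodents and little expressed in most adult tissues, was measured by 6 probe sets, of which 2 were tested. M17960_g_at read 2484, 4359 and 4093 in high corn oil replicates 1 to 3, against 2118, 2595 and 2469 in low corn oil replicates 1 to 3. High corn oil replicates 2 and 3 lay above every low corn oil array and high corn oil replicate 1 among them. The difference was 0.54 ± 0.24 (SE, limma adjusted p = 0.501), 0.79 without high corn oil replicate 1 (limma adjusted p = 0.0561) and 0.26 where high corn oil replicate 3 counted as a low array. M17960_at, named for the same sequence entry and so no separate support, read 789, 931 and 1002 against 681, 623 and 789, a difference of 0.32 ± 0.22 (limma adjusted p = 0.587).

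The other 4 Igf2 probe sets were dim and disagreed in direction. X16703_i_at was higher in every high corn oil array, at 159, 539 and 241, against 119, 41.0 and 154 in the low corn oil arrays, although 159 and 154 are close for values of this size. Its partner X16703_r_at averaged 139 ± 283 under the high diet and 144 ± 38.2 under the low diet (SD, n = 3 each). X17012mRNA_s_at averaged 57.2 ± 354 under the high diet and 391 ± 265 under the low diet. E00988mRNA_s_at was below 0 on all 6 arrays.

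H19, the noncoding RNA gene beside Igf2 that is imprinted in the opposite way, differed by -0.55 ± 0.50 (limma adjusted p = 0.662). It read 164, 1018 and 485 in the high corn oil arrays against 691, 1113 and 549 in the low corn oil arrays, so the diets overlapped. H19 did not follow the array order of Igf2 M17960_g_at.

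The receptors Igf1r and Igf2r had higher means under the high diet on all 3 of their probe sets, and in each the 2 highest arrays were high corn oil replicates 2 and 3. Igf1r L29232_at read 2050, 6372 and 6085 in high corn oil replicates 1 to 3, against 1804, 2263 and 2460 in low corn oil replicates 1 to 3. High corn oil replicate 1 thus lay within the low corn oil range, and the other high corn oil arrays far above it. The means were 4835 ± 2416 under the high diet and 2175 ± 337 under the low diet (SD, n = 3 each), a ratio of 2.22 and a log2 difference of 0.95 ± 0.41 (SE, limma adjusted p = 0.501).

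Of the 2 Igf1r probe sets, only L29232_at passed the test in a fit without high corn oil replicate 1, where 214 of 5244 probe sets passed (4.08%). It stood at 1.46 ± 0.18 (limma adjusted p = 0.0208). In that fit diet and spike-in level nearly coincided, the level being low in both remaining high corn oil arrays and high in 2 of the 3 low corn oil arrays. Within the 3 arrays of higher spike-in level the L29232_at difference was 0.02, from 1 high and 2 low corn oil arrays. Within the 3 of lower level it was 1.29, from 2 high and 1 low corn oil arrays. With spike-in level as a block it was 0.65 (limma adjusted p = 0.610), and it was 0.36 where high corn oil replicate 3 counted as a low array.

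The other Igf1r probe set, M27293_s_at, was dimmer, and high corn oil replicate 1 was again the lowest of the high corn oil arrays. It read 633, 1059 and 1075 in high corn oil replicates 1 to 3, against 303, 873 and 790 in low corn oil replicates 1 to 3. Low corn oil replicate 1 was the lowest of all, and the difference of 0.47 ± 0.38 (limma adjusted p = 0.632) was 0.10 without that array. Without high corn oil replicate 1 the difference was 0.68 ± 0.39 and did not pass (limma adjusted p = 0.321). The 2 Igf1r probe sets had a Pearson correlation of 0.760 over the 6 arrays.

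Igf2r U59809_s_at, for the receptor that clears IGF2, read 16257, 21950 and 24775 in high corn oil replicates 1 to 3, against 15207, 17571 and 18402 in low corn oil replicates 1 to 3. The step between high corn oil replicates 2 and 3 and the rest was smaller than for Igf1r. The log2 difference was 0.28 ± 0.19 (limma adjusted p = 0.564), 0.45 without high corn oil replicate 1 (limma adjusted p = 0.118) and 0.02 where high corn oil replicate 3 counted as a low array.

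**Figure D2:**
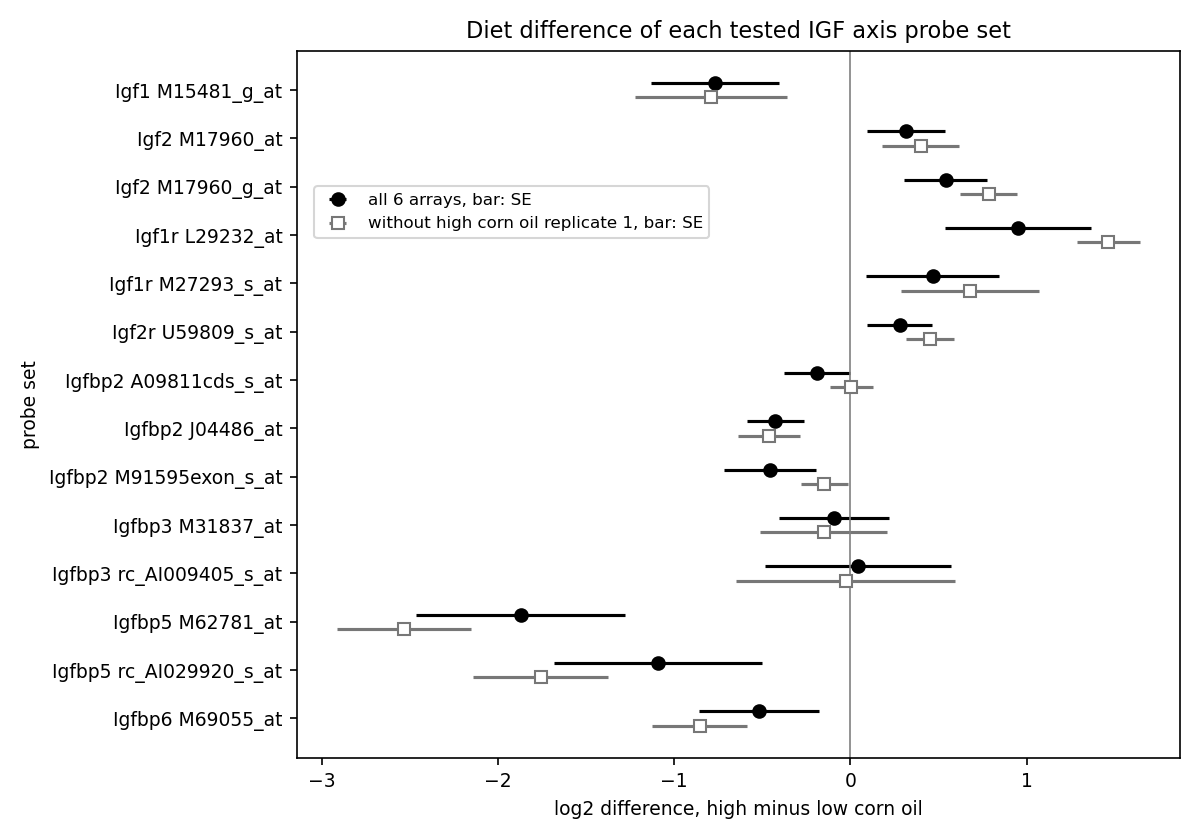
Log2 difference, high minus low corn oil, of the 14 tested probe sets with all 6 arrays (filled) and without high corn oil replicate 1 (open), with bars of 1 SE. Without that array, Igf1r L29232_at moves to 1.46 and Igfbp5 M62781_at to -2.53.

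The binding proteins were mostly lower under the high diet: 7 of their 8 tested probe sets had a negative difference, against 46.1% of all tested probe sets, and 0 passed the test. The 8 come from 4 genes, with Igfbp2 counted 3 times, and in Igfbp3 the differences were near 0. Igfbp5 had the largest difference of the 14 tested probe sets. Its protein binds both ligands and the extracellular matrix, and its mRNA is known to rise in the rat ventral prostate after castration. M62781_at read 840, 190 and 27.1 in high corn oil replicates 1 to 3, against 1539, 962 and 1477 in low corn oil replicates 1 to 3. Every high corn oil array lay below every low corn oil array, with replicate 1 closest to them. The means were 352 ± 430 under the high diet and 1326 ± 317 under the low diet (SD, n = 3 each), a ratio of 0.266 and a log2 difference of -1.87 ± 0.59 (SE, limma adjusted p = 0.462).

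The brighter Igfbp5 probe set, rc_AI029920_s_at, read 3602, 860 and 722 in high corn oil replicates 1 to 3, against 3257, 4737 and 1793 in low corn oil replicates 1 to 3. High corn oil replicate 1 was above 2 of the low corn oil arrays and replicates 2 and 3 were below all 3. The difference was -1.09 ± 0.59 (limma adjusted p = 0.524). Both probe sets therefore placed high corn oil replicates 2 and 3 lowest, and they differed on replicate 1; their Pearson correlation over the 6 arrays was 0.810. The probe set rc_AI070577_at was below 0 on all 6 arrays.

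Without high corn oil replicate 1, Igfbp5 M62781_at stood at -2.53 ± 0.38 (limma adjusted p = 0.0283) and rc_AI029920_s_at at -1.76 ± 0.38 (limma adjusted p = 0.0621). Within the 3 arrays of higher spike-in level the difference of M62781_at was -0.47 and that of rc_AI029920_s_at -0.12, each from 1 high and 2 low corn oil arrays. Within the 3 of lower level the differences were -2.70 and -1.05, from 2 high and 1 low corn oil arrays. Where high corn oil replicate 3 counted as a low array, M62781_at was at -0.56 and rc_AI029920_s_at at -0.24.

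Igfbp6, whose protein prefers IGF2 over IGF1, was lowest in the same arrays as Igfbp5. M69055_at read 13476, 8917 and 4883 in high corn oil replicates 1 to 3, against 13194, 13024 and 10240 in low corn oil replicates 1 to 3. High corn oil replicate 1 was the highest of all 6 arrays and replicates 2 and 3 the lowest. The difference was -0.52 ± 0.34 (limma adjusted p = 0.562), -0.85 without high corn oil replicate 1 (limma adjusted p = 0.124), -0.14 without high corn oil replicate 3 and 0.18 with that last array in the low group.

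Igfbp2 was measured by 3 bright probe sets that agreed on a lower mean and disagreed on which arrays were low. J04486_at read 12867, 14229 and 10003 in high corn oil replicates 1 to 3, against 17357, 15614 and 16557 in low corn oil replicates 1 to 3. The diets did not overlap, and the difference of -0.43 ± 0.16 (limma adjusted p = 0.480) was -0.28 to -0.53 when each array was left out in turn. It was -0.10 where high corn oil replicate 3 counted as a low array.

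The other Igfbp2 probe sets instead placed only high corn oil replicate 1 below the low corn oil arrays by a wide margin. M91595exon_s_at read 7367, 14470 and 13738 in high corn oil replicates 1 to 3, against 16865, 14072 and 16122 in low corn oil replicates 1 to 3. Its difference of -0.46 ± 0.26 (limma adjusted p = 0.535) was -0.15 without high corn oil replicate 1. A09811cds_s_at read 9300, 14182 and 13812 against 14794, 13832 and 13236, a difference of -0.19 ± 0.19 (limma adjusted p = 0.689) that was 0.01 without high corn oil replicate 1. These last 2 probe sets had a Pearson correlation of 0.957 with each other over the 6 arrays, and of 0.426 and 0.271 with J04486_at.

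Igfbp3, the main IGF carrier of the circulation, gave no steady direction. M31837_at read 2456, 2879 and 1603 in high corn oil replicates 1 to 3, against 1565, 3044 and 2913 in low corn oil replicates 1 to 3, a difference of -0.09 ± 0.31 (limma adjusted p = 0.911). For rc_AI009405_s_at the values were 984, 1815 and 338 against 606, 1376 and 713, with a difference of 0.04 ± 0.53 (limma adjusted p = 0.978). Both changed sign when single arrays were left out, so the diets were not distinguishable here. Igfbp1, a liver product under insulin control, was below 0 on all 6 arrays.

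Igfbp2 and Igfbp5 are neighbours on rat chromosome 9, with starts 49.4 kb apart in the RefSeq annotation of GRCr8, and Igfbp1 and Igfbp3 are neighbours on chromosome 14, with starts 16.7 kb apart. Of the first pair, Igfbp5 M62781_at was lowest in high corn oil replicates 2 and 3, while 2 of 3 Igfbp2 probe sets were lowest in high corn oil replicate 1. Of the other pair only Igfbp3 was measured above 0.

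**Figure D3:**
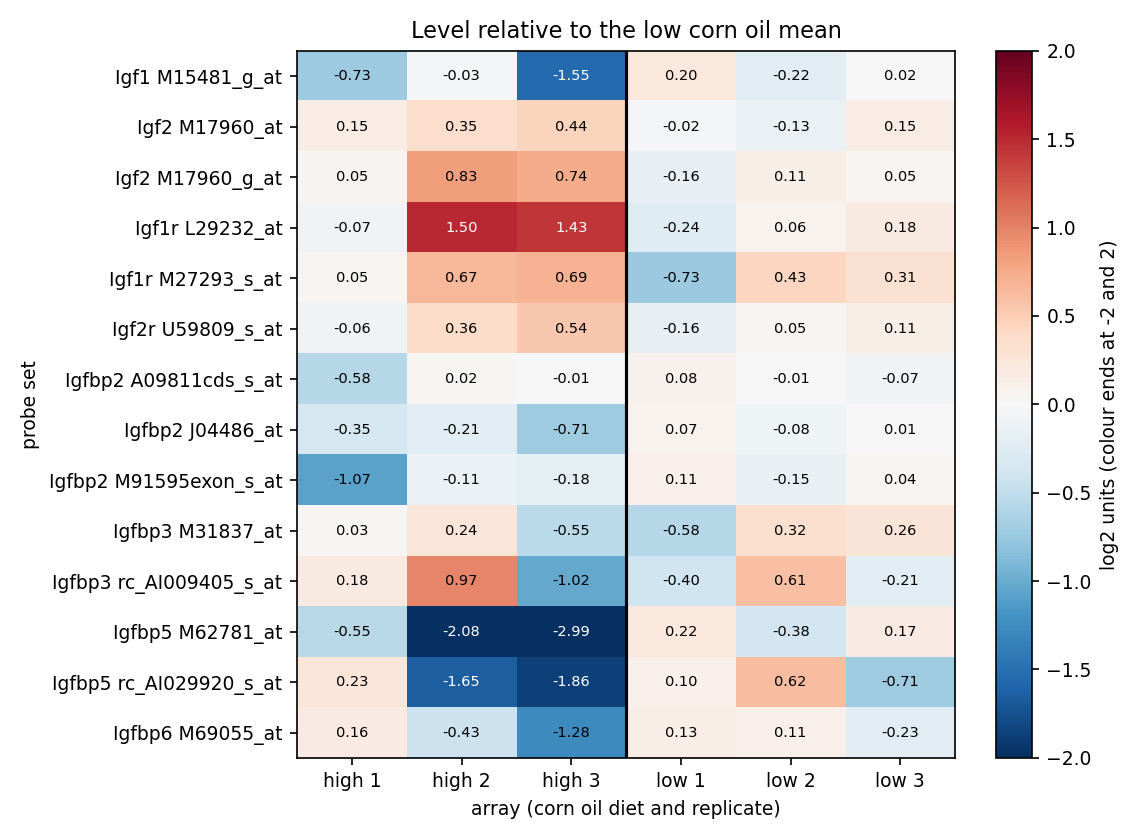
Log2 level of each tested probe set on each array relative to the mean of the 3 low corn oil arrays, high corn oil arrays to the left of the line. High corn oil replicates 2 and 3 stand at 1.50 and 1.43 for Igf1r L29232_at and at -2.08 and -2.99 for Igfbp5 M62781_at, while replicate 1 stands at -0.07 and -0.55.

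Across the 6 arrays the receptors and Igf2 were high in the same arrays and Igfbp5 low in them. Igf1r L29232_at had a Pearson correlation of 0.990 with Igf2 M17960_g_at, 0.863 with Igf2 M17960_at and 0.955 with Igf2r. With the 2 Igfbp5 probe sets it had -0.930 and -0.920. The dimmer Igf1r M27293_s_at had weaker correlations, of 0.797 and 0.586 with these Igf2 probe sets and 0.835 with Igf2r. With Igfbp5 M62781_at and rc_AI029920_s_at it had -0.701 and -0.594. The arrays share diet, spike-in level and the step between high corn oil replicates 2 and 3 and the rest. Of the 5243 other tested probe sets, 340 (6.48%) had a correlation of at least 0.9 with Igf1r L29232_at and 290 (5.53%) of -0.9 or below. In 11 of the 14 probe sets (78.6%), high corn oil replicate 1 was nearer to the low corn oil mean than to the mean of the other high corn oil arrays, against 66.3% of all tested probe sets.

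Some secretory markers of the lobes had array patterns that overlap with those of Igf1r and Igfbp5, and others did not. Pbsn was lower in high corn oil replicates 2 and 3, as given above, and the secretory protein gene Msmb read 73854, 33652 and 39953 in high corn oil replicates 1 to 3, against 66835, 71719 and 80234 in low corn oil replicates 1 to 3. Sbp, the spermine-binding protein known from the rat ventral lobe, read 1891, 45313 and 53056 under the high diet, against 39729, 6801 and 12179 under the low diet, so low corn oil replicate 1 was close to high corn oil replicate 2. Tgm4, the prostate transglutaminase, did not separate those arrays, at 31002, 27652 and 13870 under the high diet against 37737, 41267 and 5749 under the low diet. Summed over the 7 luminal epithelial markers with a probe set, the intensity was 188029 to 281037 in high corn oil arrays against 245608 to 295923 in low corn oil arrays, and 4 of the 7 were lower. The epithelial keratin genes Krt8, Krt18 and Krt19 differed by -0.04, -0.20 and 0.10 on the log2 scale. The part of the secretory markers in the Igf1r and Igfbp5 values was not tested.

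The promoters of 5 genes that set high corn oil replicates 2 and 3 apart are shown, because Igf2, Igf1r and Igf2r were high in those arrays while Igfbp5 and Igfbp6 were low. Each is the 250 bases before the start of the gene in RefSeq's GRCr8 annotation, which also holds the other 5 genes. Igf2 lies at chr1:207253981-207254230 on the minus strand, Igf1r at chr1:130959747-130959996 on the plus strand, Igf2r at chr1:50526628-50526877 on the plus strand, Igfbp5 at chr9:81914188-81914437 on the minus strand and Igfbp6 at chr7:135154669-135154918 on the plus strand, and each is printed on its own strand. Capitals mark a GC box, searched as GGGCGG or its reverse complement CCGCCC.
Igf2: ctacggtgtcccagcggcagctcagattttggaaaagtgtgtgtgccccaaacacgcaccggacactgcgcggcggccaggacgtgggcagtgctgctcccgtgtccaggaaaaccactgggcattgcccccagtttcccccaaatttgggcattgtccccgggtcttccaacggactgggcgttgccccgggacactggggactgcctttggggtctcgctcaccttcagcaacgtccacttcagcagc
Igf1r: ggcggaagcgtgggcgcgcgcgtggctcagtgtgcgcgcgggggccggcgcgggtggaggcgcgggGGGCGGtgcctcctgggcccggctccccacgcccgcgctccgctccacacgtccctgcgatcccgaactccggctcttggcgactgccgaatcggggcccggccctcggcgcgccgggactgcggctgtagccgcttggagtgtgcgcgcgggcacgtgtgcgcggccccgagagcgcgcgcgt
Igf2r: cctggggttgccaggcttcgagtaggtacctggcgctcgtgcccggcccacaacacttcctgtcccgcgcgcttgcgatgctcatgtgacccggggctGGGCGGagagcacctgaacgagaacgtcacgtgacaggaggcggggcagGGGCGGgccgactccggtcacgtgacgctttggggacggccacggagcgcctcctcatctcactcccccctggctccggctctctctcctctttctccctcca
Igfbp5: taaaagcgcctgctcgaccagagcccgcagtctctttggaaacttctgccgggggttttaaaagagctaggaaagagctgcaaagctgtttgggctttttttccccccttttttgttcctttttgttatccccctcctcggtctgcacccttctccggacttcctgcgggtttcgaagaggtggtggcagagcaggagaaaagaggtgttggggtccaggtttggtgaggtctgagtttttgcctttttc
Igfbp6: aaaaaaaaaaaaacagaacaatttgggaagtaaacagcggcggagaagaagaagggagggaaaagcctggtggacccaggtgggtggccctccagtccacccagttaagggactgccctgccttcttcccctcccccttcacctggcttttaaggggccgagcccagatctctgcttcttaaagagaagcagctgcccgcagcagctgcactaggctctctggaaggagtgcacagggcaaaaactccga

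The Igf1r window held 1 GC box and the Igf2r window 2, while those of Igf2, Igfbp5 and Igfbp6 held 0. Igf2 had a higher mean under the high diet, like Igf1r and Igf2r, and Igfbp5 and Igfbp6 had lower means. Of 27457 rat promoter windows of this length, 32.4% held at least 1. Any link between the matches and the array values was not tested. None of the 5 held the letters TATAAA or CCAAT on either strand, against 13.1% and 34.3% of all windows. G and C made up 62.4% of the Igf2 window, 79.6% of Igf1r, 68.0% of Igf2r, 51.6% of Igfbp5 and 54.8% of Igfbp6, with a median of 52.0% over all windows. The matches are letters in a window and were not set against any measure of binding.

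Other genes of the pathway did not move as a group. Of 70 partners listed, 44 had a probe set and 37 were tested, of which 20 were higher and 17 lower under the high diet. Their median was 0.04 in log2, against 0.03 over all tested probe sets. None passed limma's test, and the diets did not overlap in 4 of the 37 (10.8%), against the 15.5% of all tested probe sets. Among receptors and adaptors 4 of 11 were higher, among downstream kinases and their targets 11 of 18, and in the growth hormone input 3 of 4.

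Rps6kb1, the ribosomal S6 kinase downstream of mTOR, had the smallest p of the partners. It read 1474, 1965 and 2387 in high corn oil replicates 1 to 3, against 1092, 1114 and 1405 in low corn oil replicates 1 to 3, a difference of 0.61 ± 0.23 (SE, limma adjusted p = 0.480). The diets did not overlap. Ccnd1, the G1 cyclin D1 that growth factors induce, read 2944, 5816 and 6450 against 3296, 2686 and 3444, a difference of 0.60 ± 0.30 (limma adjusted p = 0.510). As with Igf1r, high corn oil replicate 1 lay among the low corn oil arrays.

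Nedd4, a ubiquitin ligase that acts on the IGF1 receptor together with the adaptor GRB10, followed the pattern of Igfbp5. It read 18473, 3212 and 3584 in high corn oil replicates 1 to 3, against 24371, 19197 and 13428 in low corn oil replicates 1 to 3, a difference of -1.59 ± 0.63 (limma adjusted p = 0.483). High corn oil replicates 2 and 3 were far below the other 4 arrays. Without high corn oil replicate 1, limma called Nedd4 (-2.39, adjusted p = 0.0208), Ccnd1 (0.94, adjusted p = 0.0428) and Ctsd, the lysosomal protease cathepsin D (-0.68, adjusted p = 0.0375), where 4.08% of all tested probe sets passed.

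Of the phosphoinositide 3-kinase genes measured, some had lower and some higher values under the high diet. Pik3cb, a catalytic subunit, differed by -0.82 ± 0.37 (limma adjusted p = 0.501) and did not overlap between diets. It read 421, 237 and 121 under the high diet, against 437, 551 and 667 in the low corn oil arrays. Pik3r1, the regulatory subunit, differed by -0.94 ± 0.46 (limma adjusted p = 0.507) and the kinase gene Akt2 by -0.66 ± 0.34 (limma adjusted p = 0.517). Akt1, its close relative, differed by -0.03 ± 0.15, and the regulatory subunit gene Pik3r2 by 0.22 ± 0.27. Pdpk1, the kinase that activates AKT, was too dim to be tested and read 60.3, 521 and 535 under the high diet, against 12.3, 15.0 and 41.2 under the low diet. The regulatory subunit gene Pik3r3, also too dim to be tested, went the other way. It read 40.4, -166.5 and -400.3 under the high diet, against 356.9, 326.7 and 53.2 under the low diet.

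The insulin receptor gene Insr, which pairs with Igf1r in hybrid receptors, differed by -0.37 ± 0.56, and Irs1, the adaptor of both receptors, by 0.11 ± 0.44. The growth hormone receptor gene Ghr, upstream of Igf1 in liver, was dim and untested, reading 70.0, 62.5 and 6.4 under the high diet, against 74.5, -23.1 and -10.5 in the low corn oil arrays. Igfbp7, a related binding protein of low IGF affinity, had no probe set named here.

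**Figure D4:**
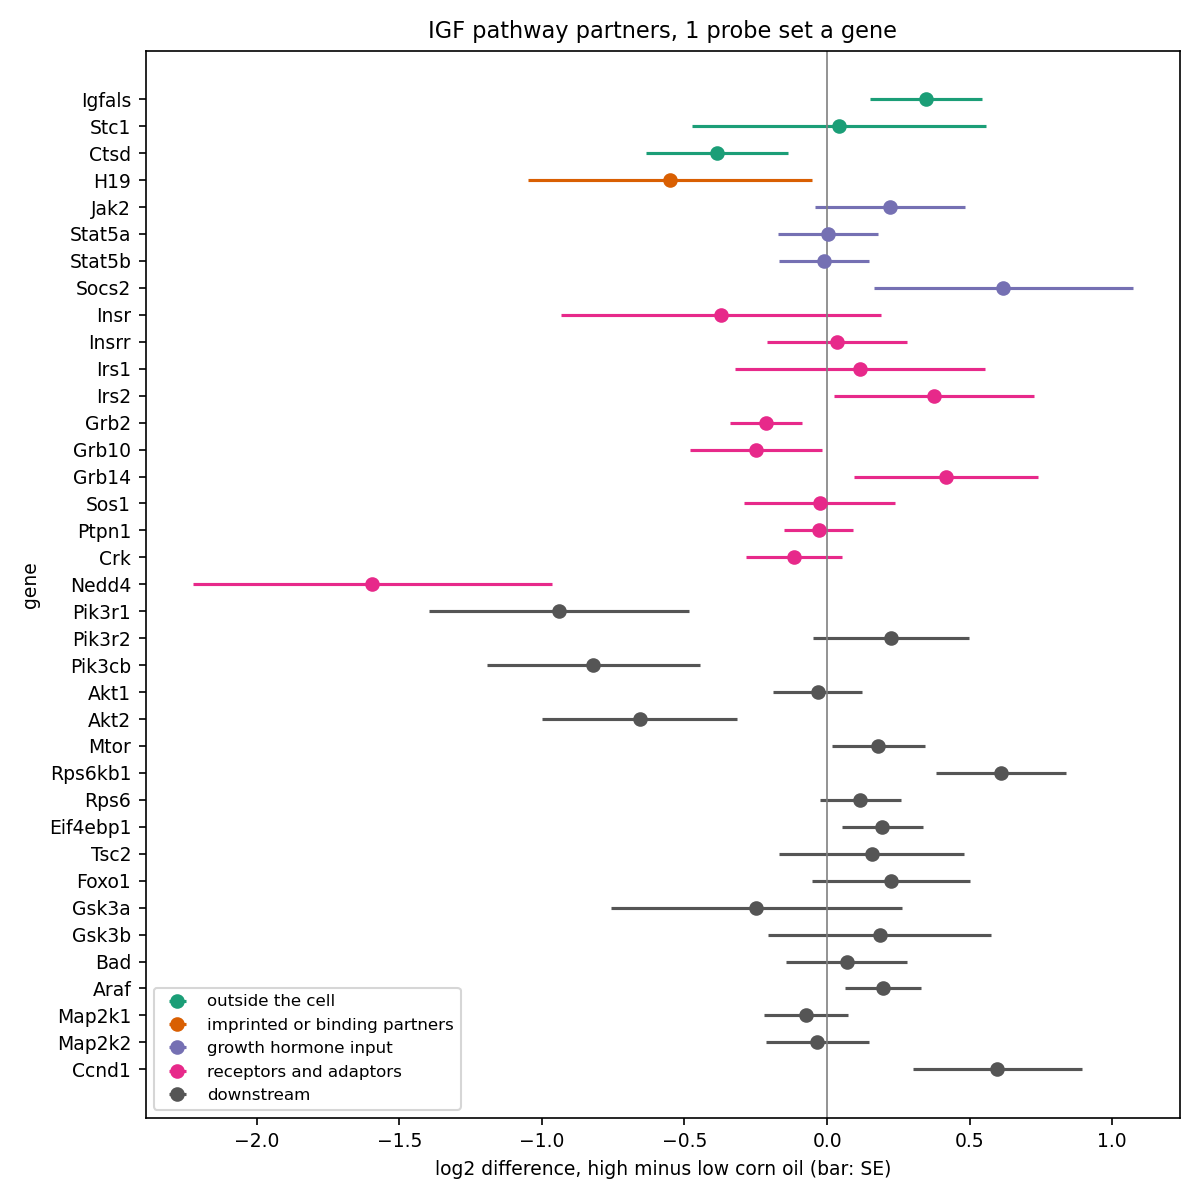
Log2 difference, high minus low corn oil, with bars of 1 SE for the 37 tested IGF pathway partners, coloured by role. Nedd4 at -1.59 lies farthest from 0, and none of the 37 passed the adjusted threshold.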

How the data were processed

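Total RNA from 6 dorsolateral prostates was labelled with biotin and hybridized to 1 Affymetrix array per rat, per the labels' protocols. The table holds 1 intensity per probe set and array, on a linear scale as deposited. The submitters' processing notes name MAS5 and no other tool. The authors had scaled the deposited intensities: the mean without the highest and lowest 2% was 2503 or 2504 on every array, and 18.6% to 23.1% of values were at or below 0.

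Probe sets were named through the platform annotation, with symbols updated by gene identifier to GRCr8 names. Of 8799 probe sets, 59 were controls and stayed out of filter and tests. Values below 0 were set to 0 and transformed as log2(value + 156.1), the pseudocount being the median of all values divided by 4. The diet comparison used limma 3.58.1 (R 4.3.3; intensity trend, two-sided) and Benjamini-Hochberg adjustment over 5244 probe sets with a mean of at least 342.9. No normalization was added. The limma step was tested on simulated data. The number of arrays limits the precision.

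The members, lists and settings were chosen with earlier results of these data known. All members were named, with the 6 partners of smallest p and Ghr, Insr, Irs1, Igfbp7 and Akt1, and the 3 genes most like Igf1; each partner was taken by its brightest probe set. H19, Ctsd, Pik3r2, Pik3r3, Pdpk1 and the marker genes were named after their values were seen. Replicate numbers were not used to pair the arrays in the main fit. Deviations of same-numbered arrays from their diet means correlated at -0.05, -0.20 and 0.18. With 3 arrays a diet these values cannot settle whether the numbers mark pairs. The array medians averaged 643 in high corn oil arrays and 609 in low corn oil arrays and gave p = 0.6 in an exact permutation test (two-sided, smallest possible 0.1). Alternatives changed the pseudocount, filter, normalization, trend, blocks on replicate number and spike-in level, the group of high corn oil replicate 3, and each array in turn.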

Additional observations from a re-analysis of the deposited data

How the results depend on the processing

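Counts past the adjusted threshold in limma were 0 over all probe sets, 0 among the IGF axis and 0 among the partners with both other pseudocounts, the filter at the 60th percentile, quantile normalization, no intensity trend, the spike-in block and high corn oil replicate 3 moved to the low group. With the replicate number as a block the counts were also 0, 0 and 0, and the block changed no call. Limma's unadjusted p was then under 0.05 in 4 of the 14 IGF axis probe sets, against 2 in the main fit. Over all 5244 probe sets the same counts were 554 and 522. With no filter 9 of all 8740 probe sets passed, none of the IGF axis. Leaving out each array in turn gave 0 to 214 over all probe sets, 0 to 2 in the IGF axis and 0 to 3 among partners, every call coming without high corn oil replicate 1. When quantile normalization was added to that, a setting chosen after seeing the data, they were 218, 2 and 3. With high corn oil replicate 3 in the low group, the sign turned in Igf1 M15481_g_at (0.0063), Igfbp3 M31837_at (0.27) and Igfbp6 M69055_at (0.18). When arrays were left out in turn, Igfbp3 M31837_at ran from -0.38 to 0.13, Igfbp3 rc_AI009405_s_at from -0.42 to 0.58 and Igfbp2 A09811cds_s_at from -0.29 to 0.0057, and under the setting chosen after seeing the data rc_AI009405_s_at was at -0.12. The other 9 tested IGF axis probe sets kept their sign in every setting run. The causes were not tested.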
